A study of Mus musculus with 7 samples.

Results

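The genes described here are 9 members of the bone morphogenetic protein (BMP) pathway that act outside the cell. The ligands are Bmp2, Bmp4, Bmp5, Bmp7 and Gdf5, and the secreted antagonists are Grem1, Fst, Nog and Chrdl1. They were chosen by name out of the 25700 Ensembl genes of the deposited count tables, with the 5 ligands and 4 antagonists matched to their symbols in the mouse genome GRCm38. All 9 had enough counts to be tested.

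RNA was sequenced from the epithelium of the posterior part of the lower incisor of newborn (PN0) mouse pups. The 4 K14;Nogo-A pups (replicates 1, 2, 7 and 10) carried 1 copy of K14cre, a transgene that expresses Cre recombinase under the keratin 14 promoter, and were homozygous for a floxed Nogo-A allele (Nogo-A fl/fl). In these pups Nogo-A is therefore meant to be deleted in keratin 14-expressing epithelium and retained in other cells. The 3 wild-type pups (replicates 3, 8 and 9) are described as control littermates, and another wild-type pup is not analysed here. No treatment was given. The left and right incisors of a pup were pooled into 1 library, and all tests therefore compare pups. Values are listed in the order of the replicates just given. The epithelium was freed from the mesenchyme with Dispase, an enzyme that loosens the basement membrane.

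BMPs are secreted dimers that bind pairs of type I and type II serine/threonine kinase receptors on the target cell. The activated receptors phosphorylate SMAD1, SMAD5 and SMAD9, which enter the nucleus with SMAD4 and switch on targets such as the Id genes. Antagonists such as noggin and gremlin bind the ligand outside the cell and keep it from its receptors. In teeth, BMPs pass in both directions between epithelium and mesenchyme, and they are known to act in ameloblast differentiation, while follistatin limits where enamel forms on the mouse incisor.

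The libraries held 20929207 to 41219439 counts, and wild-type replicates 3 and 8 were the deepest. The median was 38734443 for wild-type and 25251763 for K14;Nogo-A. Levels are given as CPM, counts relative to the library size, with sizes normalised by TMM, a method that scales libraries on genes assumed not to differ. Rtn4, the gene that encodes Nogo-A, read 297, 344, 328 and 340 CPM in K14;Nogo-A and 281, 277 and 346 CPM in wild-type. This whole-gene count does not check the genotype, since Nogo-A is 1 of several products of Rtn4 and the floxed part is only a portion of the gene. Genes of the Y chromosome were read at a mean of 4.94 to 5.27 log2 CPM in K14;Nogo-A replicate 1 and wild-type replicates 3 and 8, and at -3.71 to -3.04 in the other 4 libraries.

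The libraries were not pure epithelium, and markers of several cell types had fitted levels that differed between genotypes. By edgeR's quasi-likelihood test 1 mesenchyme marker was called lower at an adjusted p under 0.05, beside 0.0338% of all genes tested. No marker of the other cell types was called. All 12 epithelial markers were detected, with a mean of 8.2 to 8.47 log2 CPM in K14;Nogo-A against 7.85 to 8.32. Of these, 11 were fitted higher in K14;Nogo-A, as were all 7 ameloblast markers. The 7 ameloblast markers had means of 7.73, 9.43, 9.59 and 8.69 log2 CPM in K14;Nogo-A replicates 1, 2, 7 and 10, and of 7.84, 7.29 and 7.97 in wild-type replicates 3, 8 and 9. K14;Nogo-A replicate 1 thus lay within the wild-type range, and the other 3 lay above it. Their summed level was 31391 to 103550 CPM in K14;Nogo-A and 12755 to 40496 CPM in wild-type.

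The mesenchyme markers went the other way. Of 20 listed, 19 were tested, and 17 of these had a lower fitted level in K14;Nogo-A. The mean of the 19 tested was 7.06 to 7.34 log2 CPM in K14;Nogo-A against 7.65 to 7.75, without overlap. The summed level of all 20 was 11786 to 33762 against 27417 to 42119 CPM. Tbx18 and Barx1 of this list were under 1 CPM in every library, while the collagen genes of the list were well expressed. The 10 odontoblast and osteoblast markers were all fitted lower, with means of 7.83, 6.08, 6.56 and 7.11 log2 CPM in K14;Nogo-A and 8.09, 7.59 and 7.79 in wild-type. Their summed level was 2028 to 5890 against 4482 to 6912 CPM, and each of them reached 1 CPM in at least 1 library. All 8 endothelial markers were also fitted lower (148 to 255 against 252 to 277 CPM summed), as were all 8 immune markers (40.2 to 77.4 against 57.1 to 88.7 CPM). All 6 cartilage markers tested were fitted lower, and the 8 listed summed to 263 to 634 against 503 to 782 CPM. Muscle differed in direction, with all 6 markers tested fitted higher. The 8 muscle markers listed summed to 6.74 to 27 CPM in K14;Nogo-A against 10.9 to 17.7 CPM.

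None of the 9 genes differed between genotypes after adjustment over the 14791 genes tested by edgeR's quasi-likelihood test, in which 0 genes were called higher (0%) and 5 were called lower (0.0338%) at an adjusted p under 0.05. Without adjustment 3 of the 9 had a p under 0.05, Gdf5 with a higher level and Bmp5 and Grem1 with lower levels, beside 12.9% of all genes tested. The thresholds used by the study are an unadjusted p of at most 0.05 and a log2 fold change whose size reaches 0.5. Past these were 1 of the 9 genes with a higher level, beside 2.02% of all genes tested, and 2 with a lower level, beside 2.74%. In all, 4 fitted fold changes were above 0 and 5 below, with a median of -0.03 on the log2 scale against -0.01 over all genes tested.

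**Figure D1:**
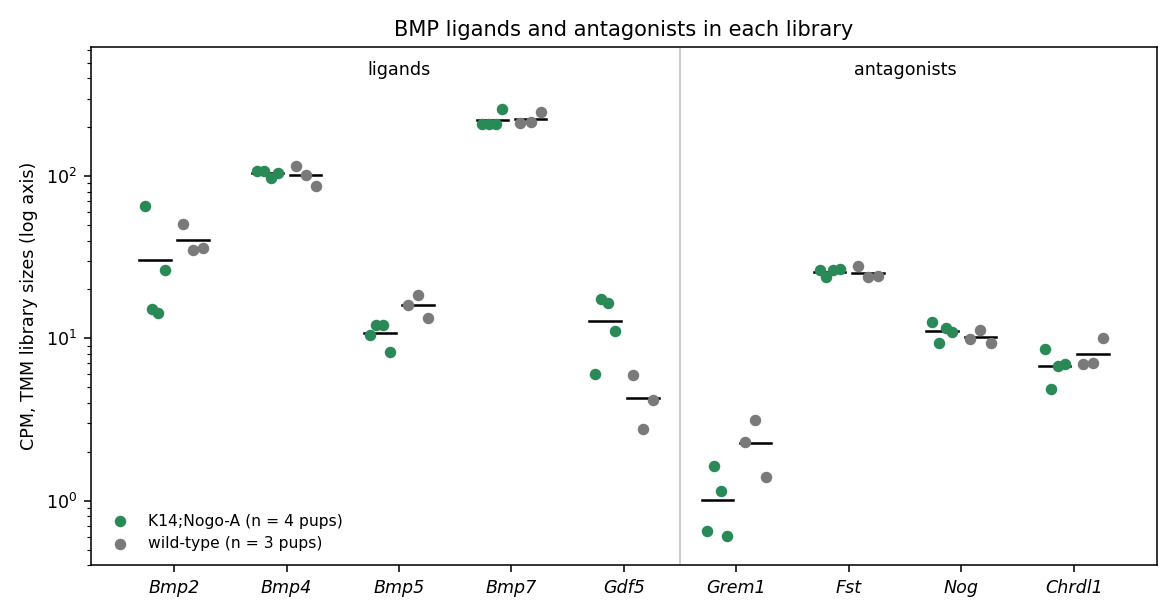
Level of each ligand and antagonist in every library, in CPM on a log axis; each point is 1 pup, green for the 4 K14;Nogo-A and grey for the 3 wild-type, and the black line is the mean of the genotype. The Gdf5 points of K14;Nogo-A lie above those of wild-type, but replicate 1 at 6 CPM nearly meets wild-type replicate 3 at 5.96 CPM. The Bmp5 points lie apart with K14;Nogo-A below, and the Bmp2 points of K14;Nogo-A spread from 14.3 to 65.7 CPM.

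The plot of levels by library shows a wide range, from about 1 CPM for Grem1 to over 200 CPM for Bmp7. The genotypes did not overlap in 2 genes. K14;Nogo-A lay above in Gdf5, as in 5.43% of all genes tested, and below in Bmp5, as in 6.09%. In Gdf5 the nearest libraries of the genotypes were almost equal, at 6 and 5.96 CPM. When CPM were scaled by RLE factors, upper-quartile factors or the library total alone, again 1 of the 9 genes lay above and 1 below without overlap.

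Among the ligands, Gdf5 had the largest fitted difference. Gdf5, best known for its part in forming joints, lies on the minus strand of chromosome 2 (ENSMUSG00000038259, chr2:155941023-155945367, GRCm38). Its counts were 130, 397, 475 and 291 across the K14;Nogo-A pups and 250, 113 and 87 across the wild-type pups. Scaled by depth, these were 6, 17.5, 16.6 and 11.1 CPM against 5.96, 2.75 and 4.18 CPM. The gap between the genotypes was narrow, because K14;Nogo-A replicate 1 at 6 CPM lay next to wild-type replicate 3 at 5.96 CPM, while the other 3 K14;Nogo-A libraries lay clearly higher.

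The mean of Gdf5 was 12.8 ± 5.35 CPM (SD, n = 4) in K14;Nogo-A against 4.3 ± 1.61 CPM (SD, n = 3). The fitted log2 fold change was 1.57 (SE 0.39, 95% interval 0.68 to 2.47), with an adjusted p of 0.22 in edgeR. The exact two-sided permutation test over all 35 assignments of genotypes to pups gave p = 0.057, where the smallest p the design allows is 0.0286. Without K14;Nogo-A replicate 1 the log2 fold change was 1.81 and the adjusted p in edgeR 0.018, in a fit that called 0.657% of all genes higher. That fit holds no K14;Nogo-A library with Y-linked counts, while wild-type replicates 3 and 8 have them. Genotype and the state of the Y-linked genes are therefore nearly tied in it. The adjusted p was also under 0.05 with edgeR's likelihood-ratio test (0.019), which called 0.392% of all genes higher, and with DESeq2 (0.043), which called 1%. Over all alternatives it ranged from 0.018 to 0.79.

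The Gdf5 level followed the ameloblast markers across libraries. It was high in K14;Nogo-A replicates 2, 7 and 10, where those markers were also high, and low in replicate 1 and in wild-type, where they were low. With the mean of the ameloblast markers as a covariate the log2 fold change of Gdf5 was 0.47 (SE 0.26, adjusted p = 0.72 in edgeR), and with the odontoblast and osteoblast markers it was 0.79 (SE 0.43, adjusted p = 0.58). With the mesenchyme markers it was -1.14 (SE 0.98, adjusted p = 0.79), in a fit that has to extrapolate because those markers do not overlap between genotypes. With each of these 3 covariates Gdf5 was no longer past the thresholds of the study. The paper reports ameloblast markers such as Amelx, Ambn and Enam as higher after Nogo-A deletion. A covariate built on them may therefore also take up a difference between genotypes. The part of cell composition in the difference cannot be told apart from genotype with 7 libraries, and in bulk RNA fewer cells of a type and less RNA per cell cannot be told apart.

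The difference in Gdf5 was smaller among libraries that share the state of the Y-linked genes with replicate 1. Between the 3 libraries with Y-linked counts (1 K14;Nogo-A, 2 wild-type) the difference in log2 CPM was 0.56, and among the 4 without (3 K14;Nogo-A, 1 wild-type) it was 1.81. With these genes as a covariate the log2 fold change was 1.19 (SE 0.43, adjusted p = 0.34 in edgeR). In the annotation 936 of the 2320 exonic bases of Gdf5, 40.3%, are shared with Gm15557 on the opposite strand, which was counted at 0 in every library. Whether the counting used strand is not given in the sources, so how reads from the shared bases were assigned is not known.

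**Figure D2:**
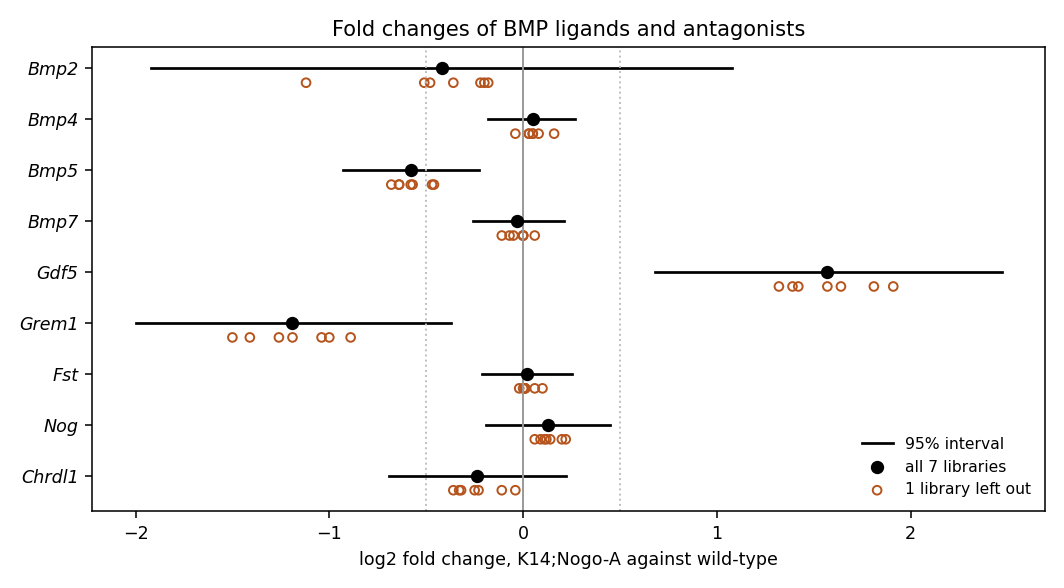
Log2 fold change of each gene, K14;Nogo-A against wild-type (horizontal axis); black points and lines are the fit to all 7 libraries with its 95% interval, open circles are the 7 fits that leave out 1 library each, and dotted lines mark 0.5 in either direction. The intervals of Gdf5, Bmp5 and Grem1 exclude 0, and the open circle of Bmp2 at -1.12 is the fit without K14;Nogo-A replicate 1.

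Bmp5 was the ligand with lower levels in K14;Nogo-A. It belongs to the same subgroup of BMPs as Bmp7 and lies on the plus strand of chromosome 9 (ENSMUSG00000032179, chr9:75775364-75900310). It read 10.5, 12, 12.1 and 8.27 CPM across the K14;Nogo-A pups and 16.1, 18.4 and 13.4 CPM across the wild-type pups. Every K14;Nogo-A library was below every wild-type library, with replicate 10 the lowest and wild-type replicate 8 the highest.

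The mean of Bmp5 was 10.7 ± 1.77 CPM (SD, n = 4) against 16 ± 2.52 CPM (SD, n = 3). The log2 fold change was -0.58 (SE 0.16, 95% interval -0.93 to -0.23), with an adjusted p of 0.22 in edgeR. The exact permutation p was 0.029, the smallest that the design allows. The adjusted p was 0.046 with DESeq2, which called 1.14% of all genes lower. The fold change was under the threshold of 0.5 in size when K14;Nogo-A replicate 10 was left out (-0.47) or when wild-type replicate 8 was (-0.46), and it ranged from -0.68 to -0.46 over the 7 fits that leave out a library. Between libraries with Y-linked counts the difference was -0.71 log2 CPM, and between those without -0.33. Of the 4025 exonic bases, 46.7% are shared with Gm26903 on the opposite strand, which is not in the count tables.

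Grem1 was the antagonist with the largest fitted difference. It encodes gremlin, which binds BMP2, BMP4 and BMP7, and lies on the minus strand of chromosome 2 (ENSMUSG00000074934, chr2:113746164-113758646). It was the least abundant of the 9 genes, with counts of 14, 37, 33 and 16 across the K14;Nogo-A pups and of 96, 128 and 29 across the wild-type pups. As CPM these were 0.646, 1.63, 1.15 and 0.61 against 2.29, 3.12 and 1.39. The genotypes overlapped, since K14;Nogo-A replicate 2 lay above wild-type replicate 9.

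The mean of Grem1 was 1.01 ± 0.484 CPM (SD, n = 4) against 2.27 ± 0.862 CPM (SD, n = 3), and the log2 fold change was -1.19 (SE 0.37, 95% interval -2.0 to -0.37). The adjusted p was 0.25 in edgeR, and the exact permutation p was 0.11. The fold change ranged from -1.50 to -0.89 over the 7 fits that leave out 1 library, and 6 of these passed the thresholds of the study, with the fit without wild-type replicate 8 (-0.89) as the exception. Between libraries with Y-linked counts the difference was -1.94 log2 CPM, and between those without -0.38. Each rests on 1 pup of a genotype, K14;Nogo-A replicate 1 with 14 counts or wild-type replicate 9 with 29. DESeq2 gave no adjusted p for this gene.

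Bmp5 and Grem1 had similar profiles over the libraries. Their log2 CPM correlated with a Pearson r of 0.95 and a Spearman rho of 0.89 over 7 libraries that share the same scaling, and with r = 0.88 without the 2 libraries farthest from the median. For this reason their promoters are printed here, as the 250 bases before the transcription start in RefSeq on GRCm38.p6, 5′ to 3′ on the strand of the gene. The Bmp5 window is chr9:75775115-75775364 on the plus strand and the Grem1 window chr2:113758649-113758898 on the minus strand. The capitals mark the letters searched as SMAD elements, which are CAGAC or its complement GTCTG, and the GC-rich GGCGCC, which reads alike on both strands.
Bmp5: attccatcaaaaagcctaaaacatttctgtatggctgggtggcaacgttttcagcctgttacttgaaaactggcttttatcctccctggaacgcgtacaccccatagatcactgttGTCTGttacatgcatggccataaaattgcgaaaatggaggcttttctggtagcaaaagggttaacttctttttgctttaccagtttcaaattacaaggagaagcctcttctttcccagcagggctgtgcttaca
Grem1: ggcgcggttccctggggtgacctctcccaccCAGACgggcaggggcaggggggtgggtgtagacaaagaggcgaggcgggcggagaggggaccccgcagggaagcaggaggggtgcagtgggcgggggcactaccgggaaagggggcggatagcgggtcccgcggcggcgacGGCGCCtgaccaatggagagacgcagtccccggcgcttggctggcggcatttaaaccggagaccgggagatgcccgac

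These windows differ in composition. The Bmp5 window is 42.8% G or C with 4 CpG dinucleotides, and the Grem1 window is 72% G or C with 24 CpG, beside medians of 52.4% and 6 over 32851 mouse promoters of the same length. Each holds 1 match to CAGAC or GTCTG, as do 42.2% of all promoters searched on both strands, and the Grem1 window also holds 1 GGCGCC, found in 9.59%. The motifs searched do not overlap each other in these windows. The promoter of Bmp4, whose genotype means were 104 and 101 CPM, is 63.2% G or C with 11 CpG and holds neither set of letters. None of the 3 windows holds TATAAA, found in 12.4% of promoters. A match is a description of the letters and not evidence of binding.

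Bmp2 was the most variable of the 9 genes. This ligand, a close relative of Bmp4 with a strong capacity to induce bone, lies on the plus strand of chromosome 2 (ENSMUSG00000027358, chr2:133552159-133562885). It read 65.7, 15.2, 14.3 and 26.3 CPM across the K14;Nogo-A pups and 50.6, 34.8 and 35.9 CPM across the wild-type pups. K14;Nogo-A replicate 1 was the highest of all libraries and the other 3 K14;Nogo-A libraries were the lowest, so that the genotypes overlapped through 1 pup.

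The mean of Bmp2 was 30.4 ± 24.1 CPM (SD, n = 4) against 40.4 ± 8.82 CPM (SD, n = 3). The log2 fold change was -0.42 (SE 0.60, 95% interval -1.92 to 1.08), with an adjusted p of 0.81 in edgeR and an exact permutation p of 0.26. Its biological coefficient of variation, the spread between pups beyond counting error, was 53.8%, beside 15.2% in common over all genes. Without K14;Nogo-A replicate 1 the log2 fold change was -1.12 (SE 0.24), past the thresholds of the study, with an adjusted p of 0.065 in edgeR. This fit, too, holds no K14;Nogo-A library with Y-linked counts. The difference between libraries with Y-linked counts was 0.65 log2 CPM, and between those without -1.0.

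The order of Bmp2 over the libraries was close to that of the odontoblast and osteoblast markers, which were at 7.83 log2 CPM in K14;Nogo-A replicate 1 and at 6.08 and 6.56 in replicates 2 and 7. With these markers as a covariate the log2 fold change of Bmp2 was 0.51 (SE 0.20, adjusted p = 0.46 in edgeR), with the ameloblast markers 0.47 (adjusted p = 0.74), and with the mesenchyme markers 3.11 (SE 0.83, adjusted p = 0.65), which again extrapolates. The direction of the fitted difference thus depended on the covariate, and with the odontoblast and osteoblast or the mesenchyme markers Bmp2 was past the thresholds of the study with a higher level.

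**Figure D3:**
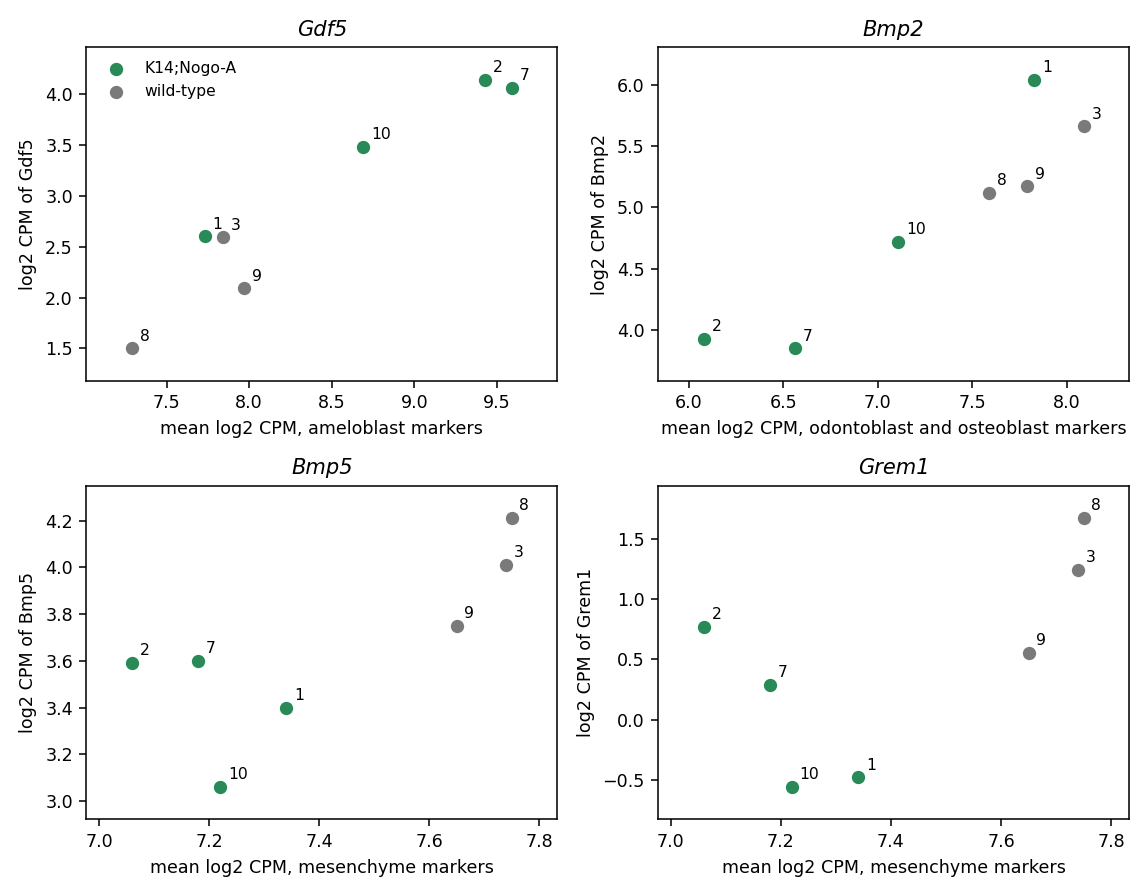
Level of Gdf5, Bmp2, Bmp5 and Grem1 in log2 CPM (vertical axes) against the mean log2 CPM of the markers of 1 cell type (horizontal axes) in the 7 libraries; points are pups numbered by replicate, green for K14;Nogo-A and grey for wild-type. Gdf5 is highest in K14;Nogo-A replicates 2 and 7, where the ameloblast markers are at 9.43 and 9.59, and Bmp2 is lowest there.

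The 4 panels show how far each gene and the markers moved together, with K14;Nogo-A replicate 1 beside the wild-type libraries for Gdf5 and for Bmp2, and the genotypes in separate groups for Bmp5 and Grem1 against the mesenchyme markers. With the mesenchyme markers as a covariate the log2 fold change of Bmp5 was -0.75 (SE 0.58, adjusted p = 0.76 in edgeR) and that of Grem1 was -2.85 (SE 1.4, adjusted p = 0.66). With the odontoblast and osteoblast markers they were -0.75 (adjusted p = 0.28) and -2.07 (adjusted p = 0.16), and with the ameloblast markers -0.66 and -1.66 (adjusted p = 0.58 for both) in the same edgeR test. Neither gene changed direction with any of these covariates, but with the mesenchyme markers, where the fit again extrapolates, neither was past the thresholds of the study. The kept direction does not tell cell composition apart from genotype.

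The other ligands, Bmp4 and Bmp7, were the most abundant and differed little between genotypes. Bmp4, a classic signal of both dental mesenchyme and epithelium (ENSMUSG00000021835, chr14:46383520-46390669, minus strand), read 108, 108, 97.3 and 104 CPM in K14;Nogo-A and 115, 101 and 86.3 CPM in wild-type. Its log2 fold change was 0.05 (SE 0.10, 95% interval -0.18 to 0.27, adjusted p = 0.88 in edgeR). Differences of more than 0.27 in size on the log2 scale lie outside this interval.

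Bmp7, a ligand of many developing epithelia (ENSMUSG00000008999, chr2:172868012-172940321, minus strand), read 208, 209, 208 and 258 CPM in K14;Nogo-A and 211, 216 and 248 CPM in wild-type. Replicate 10 stood above 3 nearly equal K14;Nogo-A libraries, and wild-type replicate 9 above the other wild-type libraries. The fitted log2 fold change was -0.03 (SE 0.11, 95% interval -0.26 to 0.21, adjusted p = 0.94 in edgeR), and its sign changed with the library left out, within a range of -0.11 to 0.06.

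Of the antagonists, Fst, Nog and Chrdl1 overlapped between genotypes. Fst encodes follistatin, which binds activins and, more weakly, BMPs (ENSMUSG00000021765, chr13:114452290-114458951, minus strand). It read 26.3, 23.8, 26.3 and 26.6 CPM in K14;Nogo-A and 28, 23.8 and 24.2 CPM in wild-type, with a log2 fold change of 0.02 (SE 0.11, 95% interval -0.21 to 0.25, adjusted p = 0.95 in edgeR). The 7 values lay in a narrow band, and each genotype had a library at 23.8 CPM.

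Nog encodes noggin, which blocks the receptor-binding faces of BMPs (ENSMUSG00000048616, chr11:89300638-89302332, minus strand). Its levels were 12.6, 9.37, 11.5 and 11 CPM in K14;Nogo-A and 9.87, 11.2 and 9.31 CPM in wild-type. Its log2 fold change was 0.13 (SE 0.14, 95% interval -0.19 to 0.45, adjusted p = 0.74 in edgeR). Nog stayed positive in all 7 fits that leave out a library, between 0.06 and 0.22, but none of these passed the thresholds.

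Chrdl1 encodes a chordin-like antagonist and is the only X-linked gene of the 9 (ENSMUSG00000031283, chrX:143285674-143394262, minus strand). It read 8.54, 4.9, 6.76 and 6.94 CPM in K14;Nogo-A and 6.99, 7.04 and 10.1 CPM in wild-type. The lowest value was that of K14;Nogo-A replicate 2 and the highest that of wild-type replicate 9. The log2 fold change was -0.24 (SE 0.21, 95% interval -0.69 to 0.22, adjusted p = 0.66 in edgeR), and the difference was 0.28 log2 CPM between libraries with Y-linked counts and -0.71 between those without.

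To compare genes with each other, levels were divided by the length of the merged exons (CPM per kb). The order in wild-type was Bmp7 at 56 ± 5.05, Bmp4 at 44.8 ± 6.44, Bmp2 at 11.4 ± 2.48, Nog at 5.99 ± 0.587, Fst at 5.52 ± 0.503, Bmp5 at 3.97 ± 0.626, Gdf5 at 1.85 ± 0.694, Chrdl1 at 1.19 ± 0.262 and Grem1 at 0.546 ± 0.208 CPM per kb (SD, n = 3). Of neighbours in this order, the ranges of Nog and Fst overlapped, as did those of Gdf5 and Chrdl1. In K14;Nogo-A the order was Bmp7 at 55 ± 6.16, Bmp4 at 46.4 ± 2.25, Bmp2 at 8.55 ± 6.79, Nog at 6.56 ± 0.801, Fst at 5.61 ± 0.29, Gdf5 at 5.52 ± 2.31, Bmp5 at 2.66 ± 0.44, Chrdl1 at 1 ± 0.22 and Grem1 at 0.244 ± 0.117 CPM per kb (SD, n = 4). Here Gdf5 stood ahead of Bmp5 by its mean, but the ranges of these neighbours overlapped, as did those of Bmp2 and Nog, Nog and Fst, and Fst and Gdf5.

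**Figure D4:**
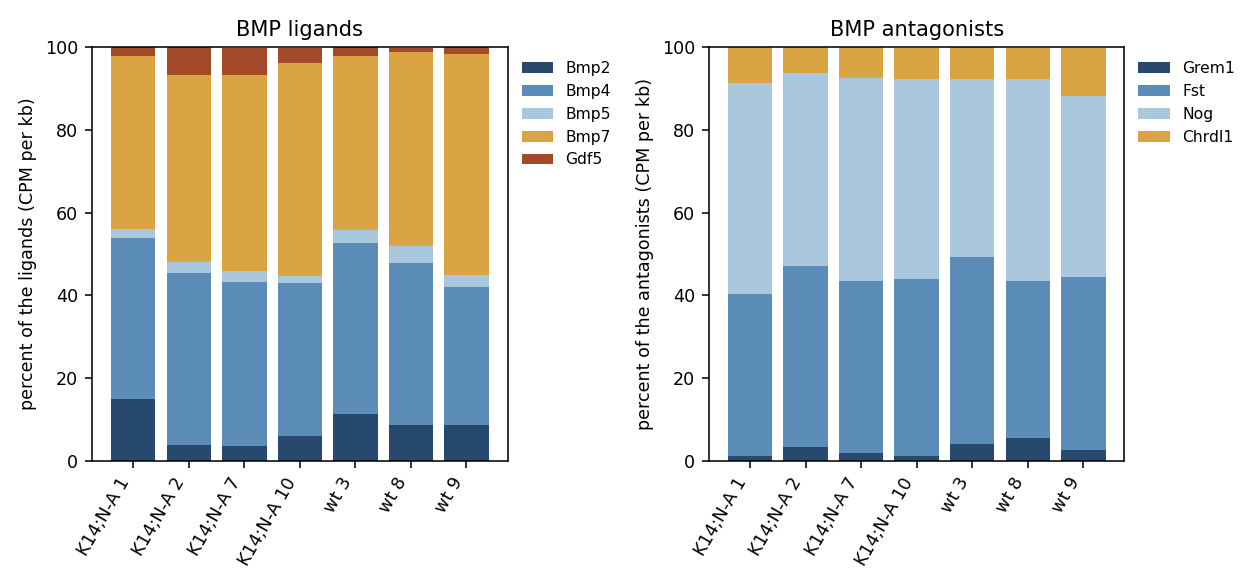
Share of each ligand among the 5 ligands (left) and of each antagonist among the 4 antagonists (right) in each library, in percent of the summed CPM per kb; each bar is 1 pup, K14;N-A for K14;Nogo-A and wt for wild-type, with its replicate number. Bmp4 and Bmp7 fill most of the ligand bars in every library, and Gdf5 takes 1.04% to 6.6%.

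The summed level of the ligands hardly differed, at 124, 115, 109 and 125 CPM per kb in K14;Nogo-A and 124, 114 and 115 in wild-type. The antagonists summed to 14.6, 11.8, 13.8 and 13.5 CPM per kb against 13.5, 13.6 and 12.6, which was 10.3% to 12.6% of the ligands in K14;Nogo-A against 10.9% to 11.9%. These sums of mRNA overlapped between genotypes and say nothing of protein.

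Gdf5 made up 2.09%, 6.6%, 6.53% and 3.84% of the ligand sum in K14;Nogo-A and 2.07%, 1.04% and 1.56% in wild-type. Bmp2 made up 14.9%, 3.73%, 3.69% and 5.95% against 11.4%, 8.57% and 8.75%. K14;Nogo-A replicate 1 thus had a make-up close to that of wild-type replicate 3 in both genes. Bmp7 held 41.9% to 51.5% against 42.1% to 53.5%, and Bmp4 37% to 41.7% against 33.3% to 41.2%. Among the antagonists Nog and Fst held the most, and Grem1 made up 1.07%, 3.33%, 2.01% and 1.09% against 4.08%, 5.52% and 2.66%. Which of Nog and Fst led depended on the length used. Per merged exon length Nog led in 6 of the 7 libraries, and per length of the longest transcript Fst led in all 7, with 47.3% to 54.3% against 33% to 39.8% for Nog.

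The genes with the most similar profile were sought among 12677 genes with a mean of at least 50 counts, by Pearson r of log2 CPM over the 7 libraries. With so few libraries and so many genes a high r is found for most genes, and the values are a description. For Gdf5 these were Chst1 (r = 0.99), a sulfotransferase, Mreg (0.99) and Tspan13 (0.99), and among the listed markers the enamel matrix genes Ambn (0.96) and Amelx (0.93). For Bmp2 they were Gm10762, Sim2 and Plpp7 (0.99 each), and among listed genes the proteoglycan gene Dcn (0.95) and the Notch and BMP target Hey1 (0.95).

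For Bmp5 the most similar genes were Ndnf, Zeb2 and Gxylt2 (0.98 each), and of the listed genes Grem1 (0.95) and the mesenchyme marker Cdh11 (0.91). For Grem1 they were Nrros (0.98), Pip4k2b (0.97) and Tmem209 (0.97), and of the listed genes Bmp5 and the activin subunit gene Inhba (0.94). The closest profile was that of Zfp658 for Bmp4 (0.98), Zfp524 for Fst (0.93), Rpl11 for Nog (0.99) and Pgp for Chrdl1 (0.97). For Bmp7 it was Susd6 (0.98), but r was 0.36 without the 2 libraries farthest from the median.

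Of the rest of the pathway, 72 genes were examined and 60 were tested. None differed at an adjusted p under 0.05 in edgeR, and at an unadjusted p under 0.05 there were 1 higher and 9 lower, which is 1 and 9 of 60 beside 6.25% and 6.66% of all genes tested. Past the thresholds of the study were 0 with a higher level and 2 with a lower one, beside 2.02% and 2.74% of all genes, and 24 fold changes were above 0 and 36 below, with a median of -0.10. The genotypes did not overlap in 1 gene with K14;Nogo-A above and in 6 with K14;Nogo-A below, beside 5.43% and 6.09% of all genes.

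**Figure D5:**
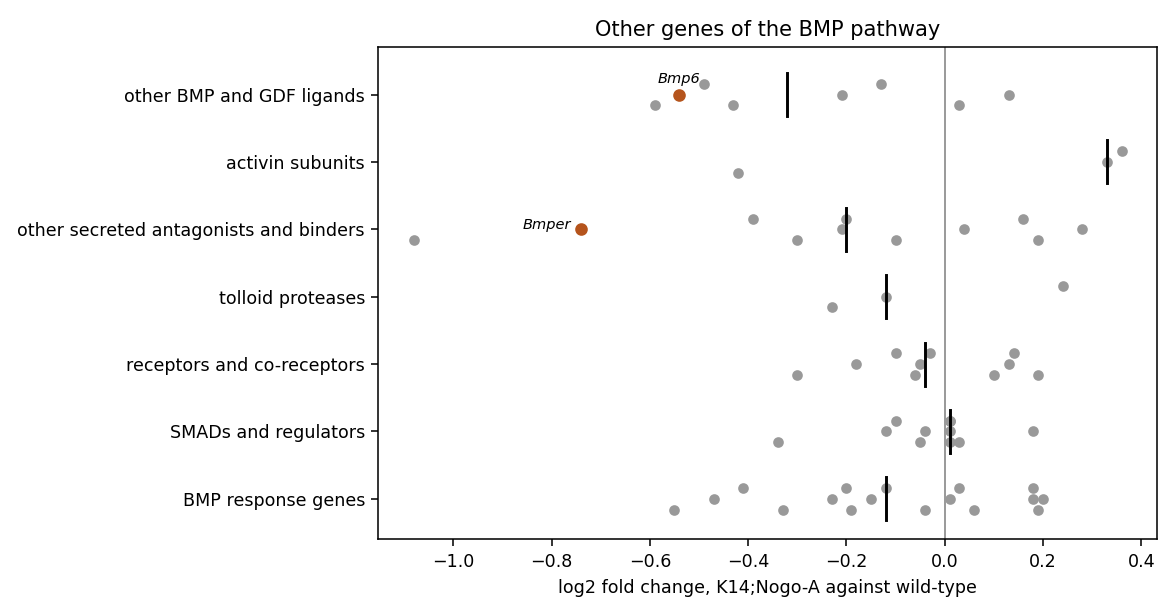
Log2 fold change of each other pathway gene tested, K14;Nogo-A against wild-type (horizontal axis), by group; each point is 1 gene, black bars are group medians, and orange points are genes past the thresholds of the study. Of the genes drawn, Bmp6 and Bmper are orange, both below 0, and no receptor or SMAD gene is.

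The other ligands and antagonists held those 2 genes, Bmp6 and Bmper. Of 14 other BMP and GDF ligands 8 were tested, with 2 above 0, 6 below and a median of -0.32. Bmp6 was at 2.89 ± 0.569 CPM (SD, n = 4) against 4.16 ± 1.18 CPM (SD, n = 3), with a log2 fold change of -0.54 (SE 0.24, adjusted p = 0.37 in edgeR). Its genotypes overlapped, at 2.29 to 3.65 CPM in K14;Nogo-A against 2.83 to 5.11 CPM. The next in order of p were Bmp8b at -0.43 (adjusted p = 0.43 in edgeR), without overlap between genotypes, and Gdf7 at -0.59 (adjusted p = 0.44).

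Of 14 other secreted antagonists and binders 11 were tested, with 4 above 0, 7 below and a median of -0.20. Bmper, a secreted BMP-binding protein that acts in endothelium, read 9.41, 6.98, 7.91 and 5.64 against 14.2, 14.6 and 8.45 CPM, overlapping through wild-type replicate 9. Its log2 fold change was -0.74 (SE 0.22, adjusted p = 0.23 in edgeR). Fstl1, a follistatin-like gene, was abundant at 990 ± 67.6 against 1218 ± 134 CPM, with a log2 fold change of -0.30 (adjusted p = 0.29 in edgeR) and no overlap. Twsg1, a BMP-binding protein that acts together with chordin, was at 268 ± 9.26 against 310 ± 13.9 CPM, with a log2 fold change of -0.21 (SE 0.09, adjusted p = 0.33 in edgeR), and its genotypes did not overlap.

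The genes of the activin and inhibin subunits went in both directions. Of the activin subunit genes, Inhba had a log2 fold change of -0.42 (SE 0.14, adjusted p = 0.27 in edgeR) and Inhbb of 0.36 (adjusted p = 0.48). Inha, which encodes the alpha subunit of inhibin, was at 0.33 (SE 0.14, adjusted p = 0.34 in edgeR). The genotypes did not overlap in Inha or Inhba. The tolloid proteases, which free BMPs by cleaving chordin, were at 0.24 for Tll1, -0.12 for Bmp1 and -0.23 for Tll2, with adjusted p of 0.50, 0.63 and 0.79 in edgeR.

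Downstream of the ligands, none of the 10 receptor and co-receptor genes tested of 12 listed had an unadjusted p under 0.05, and their median was -0.04. Those with the smallest p were Eng at -0.30 (adjusted p = 0.42 in edgeR), Bambi, a decoy receptor and BMP target, at 0.19 (0.58) and Acvrl1 at -0.18 (0.65). All 11 SMADs and their regulators were tested, with 6 above 0, 5 below and a median of 0.01. Smad9, a receptor-activated SMAD, was at -0.34 (SE 0.12, adjusted p = 0.29 in edgeR) without overlap between genotypes, and the inhibitory Smad7 at 0.18 and the corepressor Ski at -0.12 had adjusted p of 0.56 and 0.58.

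Of 18 BMP response genes 17 were tested, with 7 above 0, 10 below and a median of -0.12. None was past the thresholds of the study, and the 3 with an unadjusted p under 0.05 all had lower levels. They were Runx2 at -0.47 (SE 0.13, adjusted p = 0.22 in edgeR), without overlap, Dlx6 at -0.41 (adjusted p = 0.29) and Msx1 at -0.33 (adjusted p = 0.32). Runx2 and Msx1 encode transcription factors of skeletal and dental mesenchyme, and Runx2 stands also in the odontoblast and osteoblast marker list and Msx1 in that of mesenchyme. Runx2 was lowest in K14;Nogo-A replicate 1 at 52.1 CPM, where the odontoblast and osteoblast markers lay within the wild-type range. Msx1 in that library was at 131 CPM, within its wild-type range of 122 to 150 CPM, and the mesenchyme markers lay below theirs. Sp7, another response gene in the odontoblast and osteoblast list, was at 174 CPM there, within its wild-type range of 120 to 201 CPM. In the other K14;Nogo-A libraries Sp7 was at 85.1 to 94.8 CPM. The cause of these levels was not tested.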

How the data were processed

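RNA of incisor epithelium from 7 newborn pups was sequenced by the authors (poly(A) RNA, TruSeq, Illumina HiSeq). The authors deposited whole-number read counts for each Ensembl gene, not normalised. Per the labels and the paper, the authors used bcl2fastq 2.19, adapter trimming (Trimmomatic in the submitters' processing notes, fastp in the paper), STAR 2.7.1 on GRCm38 and featureCounts. Whether counting used strand is not given in the sources.

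Gene IDs were matched to GENCODE M21 symbols (25664 of 25700, with 0.0348% of counts in the rest). A gene was tested if 50% or more of the libraries of a genotype had 10 or more counts, which kept 14791. The test was the robust quasi-likelihood test of edgeR 4.0.16 in R 4.3.3 with TMM factors and no covariate, adjusted by Benjamini-Hochberg across these genes. The study's methods give its threshold of 0.5 as a fold change and a legend as a log2 ratio, and the log2 form was used. Log2 CPM had a prior count of 2. For single genes an exact permutation test (two-sided) took all 35 splits. The script was tested on simulated data.

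Alternatives were RLE and upper-quartile factors, the likelihood-ratio test, DESeq2 1.42.0, voom in limma 3.58.1, other count filters, each library left out, marker and Y-linked covariates, thinned counts and a log2 threshold of 1. The ameloblast and the odontoblast and osteoblast covariates and the separation of genotypes under other scalings were added after seeing the data. The genes and lists were chosen with earlier results of these data known. Named were all 9 genes, and of each pathway list the genes past a threshold and up to 3 with the smallest p. Promoters came from RefSeq on GRCm38.p6, where 3 of the 9 genes matched. No 2 libraries of a genotype agreed within sampling noise (chi-square per degree of freedom at least 16.1). A listed pathway gene is not reported here and was left out of the list counts.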

Additional observations from a re-analysis of the deposited data

Results flagged for a closer look

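In groups of 4, the highest or lowest sample was compared with its nearest neighbour relative to the range of the group (Dixon's test at the 95% level, 30 groups tested), and chance alone marks about 1 in 20 groups. The level of Bmp7 in K14;Nogo-A replicate 10, at 258 CPM, stood apart from the 208 to 209 CPM of the other 3 K14;Nogo-A libraries. The level of Fst in K14;Nogo-A replicate 2, at 23.8 CPM, stood apart from 26.3 to 26.6 CPM in the others, while wild-type libraries read 23.8 to 28 CPM.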

How the results depend on the processing

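No paired analysis was possible because the genotypes share no replicate number. Over all alternatives of the 9 fold changes, 153 fits kept direction and side of an adjusted p of 0.05, 13 reversed and 4 newly passed it. Adjusted p passed 0.05 for Gdf5 with the likelihood-ratio test (1.57), DESeq2 (1.58) and without K14;Nogo-A replicate 1 (1.81), and for Bmp5 with DESeq2 (-0.57), so the counts of called members were 1 higher under each of these 3 and 1 lower under DESeq2. The direction reversed with mesenchyme markers as a covariate for Bmp2 (3.11), Gdf5 (-1.14) and Chrdl1 (0.56), with odontoblast and osteoblast markers for Bmp2 (0.51), Chrdl1 (0.08) and Bmp7 (0.00), and with ameloblast markers for Bmp2 (0.47). The cause was not tested. Bmp4 read -0.04 without wild-type replicate 9, Fst -0.02 without wild-type replicate 8, and Bmp7 0.06 without wild-type replicate 9 and 0.00 without K14;Nogo-A replicate 1, 2 or 7.

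Leaving out 1 library gave log2 fold changes of -1.12 to -0.18 for Bmp2, -0.04 to 0.16 for Bmp4, -0.68 to -0.46 for Bmp5, -0.11 to 0.06 for Bmp7, 1.32 to 1.91 for Gdf5, -1.50 to -0.89 for Grem1, -0.02 to 0.10 for Fst, 0.06 to 0.22 for Nog and -0.36 to -0.04 for Chrdl1. Gdf5 lost its place past the thresholds of the study with each of the 3 marker covariates. Members past them thus numbered 0 higher with ameloblast markers, while the 1 higher with mesenchyme or with odontoblast and osteoblast markers was Bmp2. Numbers lower were 0 with mesenchyme markers or without wild-type replicate 8, but 1 when K14;Nogo-A replicate 10 was left out, and 1 at a log2 threshold of 1. Bmp2 was also past them, as lower, when K14;Nogo-A replicate 1 was left out (-1.12).

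Pathway genes past those thresholds were 0 higher, but 1 without wild-type replicate 9 and 6 with mesenchyme markers. They were 2 lower, but 4 with voom or ameloblast markers, 5 with odontoblast and osteoblast markers, 7 with mesenchyme markers, 1 with thinned counts and 1 to 7 over the fits that leave out a library (7 when K14;Nogo-A replicate 1 was left out, 1 when K14;Nogo-A replicate 10 or when wild-type replicate 8 was). At an adjusted p under 0.05, DESeq2 called 1 lower, beside 1.14% of all genes, and 2 were called lower without K14;Nogo-A replicate 1, beside 0.839%. Of the 9 ligands and antagonists Grem1 had the fewest counts, down to 14 in a library.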
